A study of Mus musculus with 48 samples.

Results

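Ier3 (immediate early response 3, also called IEX-1 or gly96) was followed by the 1 probe set that the platform annotation gives to this gene alone. It is 1 gene of 18193 named genes on the array and of 13018 with a tested probe set. The gene was chosen by its measured values: among the genes tested it had the highest difference in the slope of decline between cells without and with Zfp36. Its levels, slopes and differences between the lines are therefore given as a description, with errors and no test. The cells were fibroblast lines made from littermate E14.5 embryos (whole embryo without head and organs, strain 129/B6, both parents TTP +/-), either Zfp36 +/+ (WT) or Zfp36 -/- (KO). Each genotype appears from the labels to be 1 line, so line and genotype cannot be told apart. Both lines were held for 16 h in 0.5% serum and then fed 10% serum for 90 min. Actinomycin D, which blocks transcription, was then present for 0, 30, 60, 90 or 120 min. Its dose is written as 5 ug/ml in the series description but as 0.5 ug/ml in the sample labels, and remains unsettled. Serum-deprived samples were not analysed here. Each sample pooled 3 dishes of 100 mm. The work was done in 5 experiments, each on its own day and with the WT and KO lines treated in parallel, which gave n = 5 arrays in each of the 10 groups except KO at 0 min (n = 4, no replicate 5) and KO at 60 min (n = 4, no replicate 4), 48 arrays in all.

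Ier3 is an immediate-early gene: growth factors, serum and NF-kappaB signalling induce its mRNA within minutes, and the mRNA is short-lived. The protein is a substrate and regulator of ERK, binds B56 subunits of the phosphatase PP2A and the survival protein Mcl1, and has been tied to cell survival under stress. Zfp36 encodes tristetraprolin (TTP), which binds AU-rich elements in the 3' untranslated region of mRNAs, recruits deadenylases and so shortens the life of its targets.

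Because the 0 min samples measure Ier3 after serum induction, the 250 bases before its transcription start are shown, from RefSeq on GRCm38.p6, chr17:35821463-35821712, + strand, with motif matches in capitals.

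Ier3: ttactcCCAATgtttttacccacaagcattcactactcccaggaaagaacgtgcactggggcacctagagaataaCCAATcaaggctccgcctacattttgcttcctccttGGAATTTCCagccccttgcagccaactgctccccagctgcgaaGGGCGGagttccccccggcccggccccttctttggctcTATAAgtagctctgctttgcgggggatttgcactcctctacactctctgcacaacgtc

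Motifs were searched on both strands, and no 2 matches overlapped. CCAAT occurred 244 and 175 bases before the start, a GGNNTTTCC match (NF-kappaB type, here GGAATTTCC) 139 bases before, the Sp1 GC box GGGCGG 96 bases before and TATAA 58 bases before. Of 32851 windows of this length, 33.8% held CCAAT, 4.93% GGNNTTTCC, 32.7% GGGCGG and 22.8% TATAA. The AP-1 site TGANTCA (6.75% of windows), the CRE TGACGTCA (1.55%) and the CArG box, the binding motif of serum response factor (1.47%), had no match in these letters. The CCAAT, GGNNTTTCC and TATAA patterns were written with the sequence in view, and a match is a description of letters only.

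Zfp36, the targeted gene, was measured by 1 tested probe set. At 0 min its log2 signal in WT replicates 1 to 5 was 9.84, 10.14, 9.83, 9.69 and 9.83, and in KO replicates 1 to 4 it was 9.60, 9.58, 9.28 and 9.59. The KO values all lay below the WT values, by 0.35 ± 0.09 (SE) or 1.28-fold (limma, two-sided, Benjamini-Hochberg adjusted p = 0.00245), and after 120 min both lines were near the floor of the array, at 8.17 and 8.12. The position of this probe set with respect to the targeted mutation is not known here, so it does not check the genotype. Array medians lay between 8.47 and 8.56, the 5th percentiles between 8.02 and 8.13 and the highest signals between 13.28 and 13.43. Of 11 tested fibroblast markers, 7 were above 10.49, the highest 95th percentile of any array, in all 10 groups, while none of the macrophage and blood, epithelial, endothelial, muscle and neural markers tested (4, 4, 2, 4 and 4) reached it in any group. Some markers differed in level between the lines at 0 min: Postn had 11.52 in WT and 9.56 in KO, Pdgfra 9.25 and 10.43, and the neural marker Tubb3 8.88 and 9.74, while the neural marker Map2 lay at 10.02 to 10.37 over the groups, just under that level. Their part in the Ier3 difference was not tested.

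Ier3 started at nearly the same level in both lines after serum and then parted. In bulk RNA, less Ier3 in every cell and a loss in some cells cannot be told apart. At 0 min the WT arrays of replicates 1 to 5 read 12.31, 12.26, 12.40, 12.26 and 12.28 log2, and the KO arrays of replicates 1 to 4 read 12.33, 12.36, 12.29 and 12.40. The groups overlapped, and the KO mean was 0.04 ± 0.12 (SE) above the WT mean. Each SE of a difference between groups rests on 1 spread per probe set, shared by all 10 groups. For Ier3 the SD among arrays was 0.06 (WT) and 0.05 (KO) at 0 min but 0.35 in WT at 60 min. The SE is therefore wide for 0 min and narrow for 60 min. At 30 min WT had 11.87, 11.88, 11.85, 11.40 and 11.62, and KO had 12.20, 12.18, 12.20, 12.28 and 12.27. From this time on every KO array was above every WT array of its time point. At 60 min WT had 10.89, 10.79, 10.96, 10.08 and 10.60, and KO (replicates 1, 2, 3 and 5) had 12.10, 11.99, 12.04 and 12.09. The WT line had lost most of its Ier3 signal within an hour, while the KO line had lost little.

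At 90 min WT had 10.20, 10.28, 10.44, 9.63 and 10.06, and KO had 11.81, 11.77, 11.82, 11.98 and 11.84. At 120 min WT had 9.83, 9.94, 10.21, 9.62 and 10.08, and KO had 11.54, 11.52, 11.49, 11.72 and 11.67. In WT, replicate 4 had the lowest signal of the group at each time from 30 min on, and in KO replicate 4 had the highest signal of the group at every time it was measured.

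**Figure D1:**
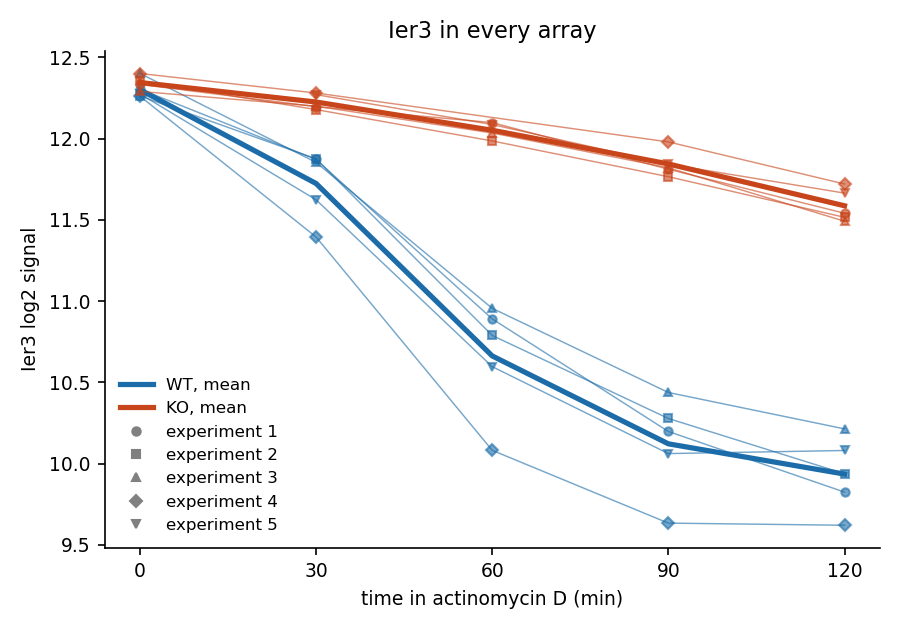
Ier3 log2 signal (y axis) against time in actinomycin D in min (x axis) for each array, with thin lines joining the arrays of 1 experiment and thick lines joining the group means of WT (blue) and KO (red). The lines start together near 12.3 and end at 9.94 (WT) and 11.59 (KO), and experiment 4 is the lowest WT series from 30 min on.

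Ordered from high to low, the group means were KO 0 min at 12.35 ± 0.05 (SD, n = 4), WT 0 min at 12.30 ± 0.06 (n = 5), KO 30 min at 12.23 ± 0.05 (n = 5), KO 60 min at 12.05 ± 0.05 (n = 4) and KO 90 min at 11.84 ± 0.08 (n = 5). Then came WT 30 min at 11.72 ± 0.21, KO 120 min at 11.59 ± 0.10, WT 60 min at 10.66 ± 0.35, WT 90 min at 10.12 ± 0.30 and WT 120 min at 9.94 ± 0.23 (n = 5 each). Neighbours in this order overlapped in range in 6 of 9 cases. The ranges were separate between KO 30 and KO 60 min, between KO 60 and KO 90 min, and between KO 120 and WT 60 min, the last with a gap of 0.92 between the means. The KO line after 120 min of actinomycin D therefore held an Ier3 signal in the range that the WT line had after 30 min. The spread among WT arrays, 0.21 to 0.35 from 30 min on, was larger than among KO arrays, 0.05 to 0.10.

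The KO minus WT difference was 0.50 ± 0.11 (SE) at 30 min, 1.39 ± 0.12 at 60 min, 1.72 ± 0.11 at 90 min and 1.65 ± 0.11 at 120 min, or 1.42-, 2.62-, 3.30- and 3.14-fold. Within single experiments the fold at 120 min ran from 2.43 in replicate 3 to 4.29 in replicate 4. The 60 min value sets 5 WT arrays against 4 KO arrays without replicate 4. Over the 4 experiments that had both arrays, the difference at 60 min was 1.24 ± 0.17 (SD, n = 4).

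As a straight line over 120 min, Ier3 fell by 1.27 ± 0.06 log2 per h (SE) in WT and by 0.38 ± 0.07 in KO, with a slope difference of 0.88 ± 0.09. These slopes equal a halving of the signal every 47.4 min in WT and every 156 min in KO, the latter being longer than the time followed. The difference was 0.93, 0.83, 0.76, 1.08 and 0.78 log2 per h in experiments 1 to 5, with the same sign in each. Ier3 was chosen for this difference over the same arrays, so agreement between the experiments is favoured by that choice. The 30 arrays of experiments 1 to 3 and the 18 of experiments 4 and 5 separated without overlap on the leading component of the deviations from group means, which held 33.9% of their variance. The Ier3 slope difference was 0.84 ± 0.07 in the former and 0.94 ± 0.20 in the latter. The WT slope of Ier3 was the 7th steepest of 13018 genes, and its KO minus WT difference at 120 min was the 12th highest. Both ranks are tied to the choice of Ier3 by its slope difference.

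The share of the 0 min signal left, computed within each experiment on the linear scale, was 67.5% ± 8.66 (SD, n = 5) in WT at 30 min, 32.7% ± 6.43 at 60 min, 22.4% ± 3.83 at 90 min and 19.5% ± 2.56 at 120 min. In KO it was 91.3% ± 2.27 (n = 4), 82.0% ± 4.07 (n = 3), 70.7% ± 3.53 (n = 4) and 58.4% ± 2.82 (n = 4) at the same times. The highest WT share at 120 min, 21.9%, was below the lowest KO share, 55.9%. After subtraction of each array's 5th percentile the shares at 120 min were 15.0% ± 2.84 in WT and 56.2% ± 3.02 in KO, and the slope difference was 1.07 ± 0.11.

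The 2 lines did not follow the same course through time. In WT the mean change was -0.58 from 0 to 30 min, -1.06 from 30 to 60 min, -0.54 from 60 to 90 min and -0.19 from 90 to 120 min, so the decline was steepest in the second interval and slowest in the last. In KO the changes were -0.13, -0.16, -0.24 and -0.26 by experiment (n = 4, 4, 4 and 5), and were larger in the later intervals. The KO minus WT difference of the change, from the fit of group means, was 0.46 ± 0.17 (SE), 0.89 ± 0.17 and 0.33 ± 0.17 in the first 3 intervals.

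From 90 to 120 min that difference was -0.07 ± 0.16, within its error of 0. In that interval the WT changes ran from -0.37 to 0.02 and the KO changes from -0.33 to -0.18, so they overlapped. The lines differed in the earlier intervals and not beyond the error in the last. With the background subtracted, the last WT change was -0.26 and the last KO change -0.28.

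**Figure D2:**
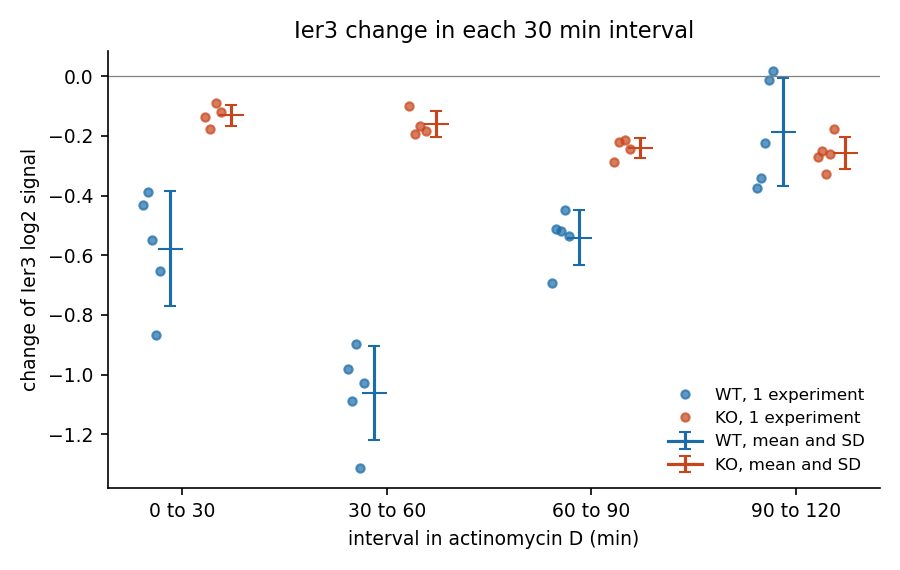
Change of Ier3 log2 signal (y axis) in each 30 min interval of actinomycin D (x axis), with 1 point per experiment and the mean and SD beside them, for WT (blue) and KO (red). The WT points lie below the KO points in the first 3 intervals, most of all from 30 to 60 min (-1.06 against -0.16), and the points mix from 90 to 120 min.

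Ier3 in WT was then set against genes that fell alike in WT, to see what these genes did in KO. The 10 genes whose WT changes from 0 min at the 4 later times lay nearest to those of Ier3 (Euclidean distance, 1 probe set per gene) were Nfkbia, Plk2, Klf10, Junb, Cited2, Arid5b, Jun, Ccn1, Nfil3 and Socs3; this set was defined after the data were seen. All 10 fell over 120 min in both lines. Their KO slopes ran from -1.70 to -0.76 log2 per h, beside -0.38 for Ier3. Because Ier3 was chosen for the highest slope difference of all genes, a smaller difference in genes with a like WT fall follows from that choice and is no result. Of the 10, 3 were called slower in KO and none faster, by limma with two-sided tests and Benjamini-Hochberg adjustment at 0.05 over 27500 probe sets. A gene counted as slower when its slope difference was positive and its WT slope negative, each with a passing adjusted p, and as faster when its slope difference was negative and its KO slope negative. Over all probe sets 0.724% were called slower and 0.229% faster. The 10 genes were chosen for their fall in WT, which a slower call requires, so these shares are no like background.

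Nfkbia, which encodes the NF-kappaB inhibitor IkappaB-alpha and, like Ier3, is induced by NF-kappaB, had the nearest WT course, at a distance of 0.12. It is itself in the list of reported TTP targets used below, so it is no comparison with a gene outside that list. Its WT group means were 11.59, 11.07, 9.97, 9.48 and 9.29 at 0, 30, 60, 90 and 120 min, with SD of 0.06 to 0.19 (n = 5). Its KO means were 11.84, 11.36, 10.51, 9.83 and 9.60, with SD of 0.11 to 0.37. Nfkbia halved every 48.6 min in WT and every 50.0 min in KO, a slope difference of 0.04 ± 0.10 (SE, limma adjusted p = 0.949). None of its 5 probe sets was called, with differences from -0.18 to 0.04. Side by side, the WT intervals of the 2 genes were -0.58 and -0.52, -1.06 and -1.10, -0.54 and -0.49, and -0.19 and -0.19 for Ier3 and Nfkbia. Over 120 min in KO, Nfkbia changed by -2.24 log2 units and Ier3 by -0.76. Nfkbia was 1.19-fold higher in KO at 0 min (limma adjusted p = 0.0951) and 1.24-fold higher at 120 min (0.0217).

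The 3 called genes fell more slowly in KO. Plk2, a serum-induced polo-like kinase, declined with a slope of -1.25 in WT against -0.76 in KO (difference 0.49 ± 0.09 SE, limma adjusted p = 0.000966). At 0 min its levels gave an adjusted p of 0.184, and at 120 min KO was 1.53-fold higher (adjusted p = 4.3e-05). Arid5b, a chromatin-binding regulator, had a slope difference of 0.32 ± 0.07 (adjusted p = 0.00429), and Cited2, a cofactor of CBP/p300, 0.30 ± 0.08 (adjusted p = 0.0489). Both started lower in KO, 1.84-fold for Arid5b and 1.36-fold for Cited2. Arid5b lost its call with the background subtracted (slope difference 0.15, adjusted p = 0.849). Of their probe sets, 2 of 4 for Arid5b and 1 of 2 for Cited2 were called. Cited2 lost its call without replicate 1, 2, 4 or 5 (adjusted p from 0.0989 to 0.303). It also lost it under background subtraction, ribosomal protein centring, quantile normalisation, no filter and no trend (adjusted p from 0.051 to 0.0877), with slope differences of 0.29 to 0.40. Klf10, a serum- and TGF-beta-induced factor, had a slope difference of 0.36 ± 0.11 that was not past the threshold (adjusted p = 0.117). The AP-1 subunits Jun and Junb had slope differences of 0.12 each, and Ccn1, a matricellular protein, -0.19, none past the threshold.

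**Figure D3:**
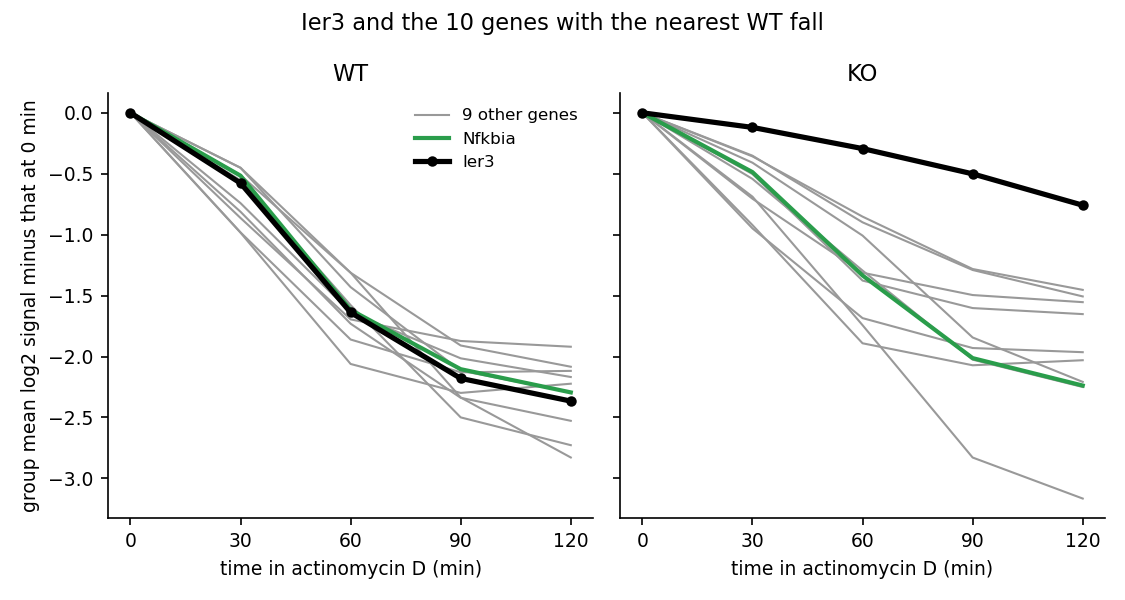
Group mean log2 signal minus that at 0 min (y axis) against time in actinomycin D (x axis) in WT (left) and KO (right) for Ier3 (black), Nfkbia (green) and the other genes with the nearest WT fall (grey). In WT the curves run together by choice of the genes, and in KO Ier3 ends at -0.76 while the 10 genes end lower, Nfkbia at -2.24.

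With the background subtracted, the 10 nearest genes shared only Nfkbia and Plk2 with those above, and Nfkbia was then at a distance of 0.29. Leaving out each replicate in turn kept 7 to 9 of the 10, with Nfkbia the nearest each time.

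Among immediate-early genes as a class, decline after actinomycin D was general, and most members were called neither slower nor faster in KO. Of 43 tested genes of a fixed list of 44, 39 fell over 120 min in WT and 38 in KO, against 14.0% and 10.6% of all probe sets. At 0 min 11 were higher and 11 lower in KO (all probe sets, 13.4% and 11.9%), and at 120 min 12 were higher and 7 lower (18.7% and 13.4%). A slower decline in KO was called for 6 and a faster one for 3, beside 0.724% and 0.229% of all probe sets, and the median slope difference was 0.05, beside -0.00117 over all probe sets. The other 34 were called neither way. A slower call requires a fall in WT and a faster call a fall in KO. A list of falling genes is therefore favoured over all probe sets, and no excess is read from these shares. Without replicate 1 the slower calls were 3, and the faster calls were 1 without replicate 2 and 0 without replicate 3, 4 or 5.

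The slower genes were Arc, Dusp4, Plk2, Plk3, Mcl1 and Phlda1. Arc, a cytoskeletal protein best known from neurons, had a slope difference of 0.53 ± 0.09 (SE, limma adjusted p = 0.000124) and Dusp4, a nuclear MAP kinase phosphatase, 0.53 ± 0.05 (adjusted p = 4.07e-10). Both began lower in KO, by 2.86-fold and 2.16-fold, and their 120 min means lay between 8.18 and 8.66, near the floor. In KO the means were low already at 0 min, at 8.45 for Arc and 8.82 for Dusp4, beside array medians of 8.47 to 8.56. Little signal could therefore be lost in KO, and the part of this low start in the slower calls of Arc and Dusp4 was not tested. Plk3, a stress-responsive polo-like kinase, resembled Ier3 in starting without a called difference (adjusted p = 0.166) and ending 1.88-fold higher in KO. Its call was lost without replicate 1 (adjusted p = 0.129). Phlda1, a pleckstrin-homology protein induced by mitogens, had a slope difference of 0.27 ± 0.07 (adjusted p = 0.0216) and lost its call without replicate 1, 4 or 5 (adjusted p from 0.108 to 0.21), under ribosomal protein centring (0.0604) and under quantile normalisation (0.0814).

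The 3 faster genes were Dusp1, Klf2 and Rgs2. In WT, Rgs2 had 8.56 at 0 min and 8.48 at 120 min, beside array medians of 8.47 to 8.56, so little signal could be lost. Dusp1 in WT went from 10.04 at 0 min to 8.43 at 60 min and 8.41 at 120 min. Klf2 in WT went from 9.26 at 0 min to 8.59 at 90 min. The part of these low WT signals in the faster calls was not tested. Dusp1, the MAP kinase phosphatase MKP-1, had a slope difference of -0.57 ± 0.15 (adjusted p = 0.0393) and began 2.17-fold higher in KO. Its call was lost without any one replicate (adjusted p from 0.065 to 0.203) and with no filter (0.0822), and none of the 3 was called after background subtraction. Klf2 lost its call without replicate 2, 3, 4 or 5 (adjusted p from 0.0614 to 0.191), and Rgs2 without replicate 3, 4 or 5 (0.0733 to 0.142) and under quantile normalisation (0.0507). Phlda1, Klf2 and Rgs2 were named after their values were seen.

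The genes that share the IER name with Ier3 are not related to it in sequence family. Ier2 and Ier5 were called neither slower nor faster in KO. Ier2, a nuclear immediate-early protein, had halving times of 79.2 min (WT) and 77.5 min (KO), with a slope difference of -0.02 ± 0.15 (adjusted p = 0.987). Ier5, a regulator of heat shock factor, went from 12.03 to 9.14 in WT and from 11.60 to 9.49 in KO, a slope difference of 0.47 ± 0.17 log2 per h that did not pass the threshold (adjusted p = 0.313). Ier5 was 1.34-fold lower in KO at 0 min and 1.27-fold higher at 120 min (adjusted p = 0.00164 and 0.00484).

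**Figure D4:**
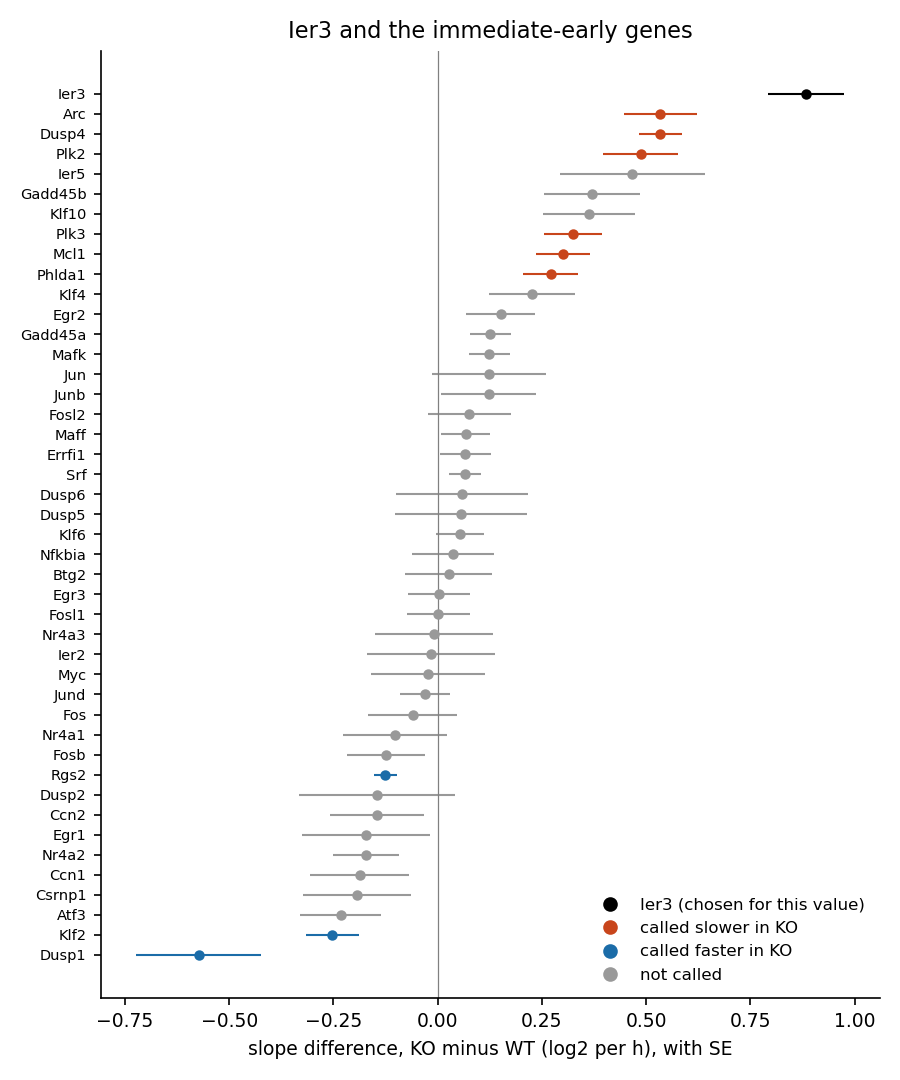
Slope difference, KO minus WT, in log2 per h with its SE (x axis) for Ier3 and the 43 tested immediate-early genes (y axis), coloured by call. Ier3, which was chosen for this value, lies at 0.88, the next gene (Arc) at 0.53 and the lowest (Dusp1) at -0.57.

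Among genes whose proteins meet Ier3, Mcl1 was the one called. Mcl1 encodes a short-lived anti-apoptotic BCL2 family protein. Its WT group means were 11.22, 10.91, 10.45, 9.87 and 9.39 from 0 to 120 min, and its KO means 11.30, 11.13, 10.86, 10.38 and 10.09. It halved every 63.6 min in WT and every 93.4 min in KO, a slope difference of 0.30 ± 0.07 (SE, limma adjusted p = 0.00734), with 0.46, 0.31, 0.23, 0.26 and 0.25 in experiments 1 to 5. At 0 min no difference passed (adjusted p = 0.669), whereas at 120 min KO was 1.62-fold higher. Of its 6 probe sets, 4 were called, and the call was lost without replicate 1 (adjusted p = 0.123) or replicate 4 (adjusted p = 0.0522).

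The list of Ier3 partners held 12 tested genes of 14. Of these, 1, Mcl1, was called slower and none faster (limma), beside 0.724% and 0.229% of all probe sets. The other members were subunits of PP2A, the pro-apoptotic gene Bcl2l11 and the ATPase inhibitor gene Atpif1. Their slopes lay between -0.06 and 0.13 log2 per h in both lines, so their signals hardly moved in 120 min. Catalytic subunit genes Ppp2ca and Ppp2cb exceeded WT after 120 min by 0.25 and 0.29 log2 (adjusted p = 1.37e-05 and 0.00901), and were already higher by 0.13 and 0.27 at 0 min (0.0289 and 0.0253). Ppp2r5a, a B56 subunit gene, was lower in KO by 0.39 at 0 min and by 0.24 at 120 min (adjusted p = 8.6e-06 and 0.00246). The median slope difference of the list was 0.02.

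A list of 18 regulators of Ier3 transcription held NF-kappaB subunits, their inhibitors and serum response factor among others, and 16 were tested. None was called slower or faster (limma), beside 0.724% and 0.229% of all probe sets. With so few genes, a count of 0 lies near these shares and is no result about the genes. At 0 min 3 of the 16 were higher and 3 lower in KO (all probe sets, 13.4% and 11.9%). At 120 min 3 were higher and 2 lower (18.7% and 13.4%). Tnfaip3, the NF-kappaB feedback inhibitor A20, had a slope difference of 0.34 ± 0.10 (adjusted p = 0.0743) and passed after quantile normalisation (adjusted p = 0.0439). Tnfaip3 began 1.80-fold lower in KO (adjusted p = 1.17e-14), and its 120 min means, 8.17 in WT and 7.99 in KO, were near the floor. Rela, the main transactivating subunit, had 0.08 ± 0.06 (adjusted p = 0.752) and Srf, serum response factor, 0.07 ± 0.04 (adjusted p = 0.67). Both genes are named after their values were seen.

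Of 11 tested genes of 12 for the TTP family and other proteins that bind AU-rich elements, none was called slower or faster (limma). Over all probe sets 0.724% and 0.229% were, so a count of 0 in so few genes is no result about them. The paralog genes Zfp36l1 and Zfp36l2 had slope differences of 0.03 ± 0.05 and 0.17 ± 0.09 (adjusted p = 0.9 and 0.601). Zfp36 itself, which reached the floor, had a slope difference of 0.17 ± 0.12 (adjusted p = 0.746). In level, KO exceeded WT for 4 of the 11 genes before actinomycin D and for 5 after 120 min (all probe sets, 13.4% and 18.7%). KO lay below WT for 1 and 0 (11.9% and 13.4%). The KO signal of Zfp36l1 was 1.29-fold that of WT before the drug (adjusted p = 0.000922) and 1.41-fold after 120 min (3.27e-06). For Zfp36l2 the folds were 1.02 (adjusted p = 0.94) and 1.31 (0.0234). Whether these levels bear on Ier3 was not tested.

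Reported TTP targets other than Ier3 were a mixed group. Of 25 listed genes 16 were tested; the 9 others, among them the classic targets Tnf and Il10, did not pass the filter on low signal. Of the 16, 3 were called slower (Mllt11, Plk3 and Cxcl1) and 1 faster (Dusp1), beside 0.724% and 0.229% of all probe sets. Nfkbia was among the 12 called neither way. Over 120 min, 11 fell in WT and 6 in KO (all probe sets, 14.0% and 10.6%). Calls require a fall, which favours such a list over all probe sets. The faster call was lost without any one replicate. Mllt11, a small cofactor gene first found as a leukaemia fusion partner, fell at 0.39 ± 0.03 log2 units per h in WT but rose, relative to the array, at 0.13 ± 0.03 in KO (slope difference 0.52 ± 0.04 SE, limma adjusted p = 5.19e-12). Unlike Ier3 it was already 1.73-fold higher in KO at 0 min. Cxcl1, a neutrophil chemokine, started level, at 12.22 in WT and 12.28 in KO, and ended at 11.74 and 12.32 (slope difference 0.27 ± 0.05, adjusted p = 0.000967). The list can hold genes first reported from these arrays, so its counts are not independent evidence of direction.

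**Figure D5:**
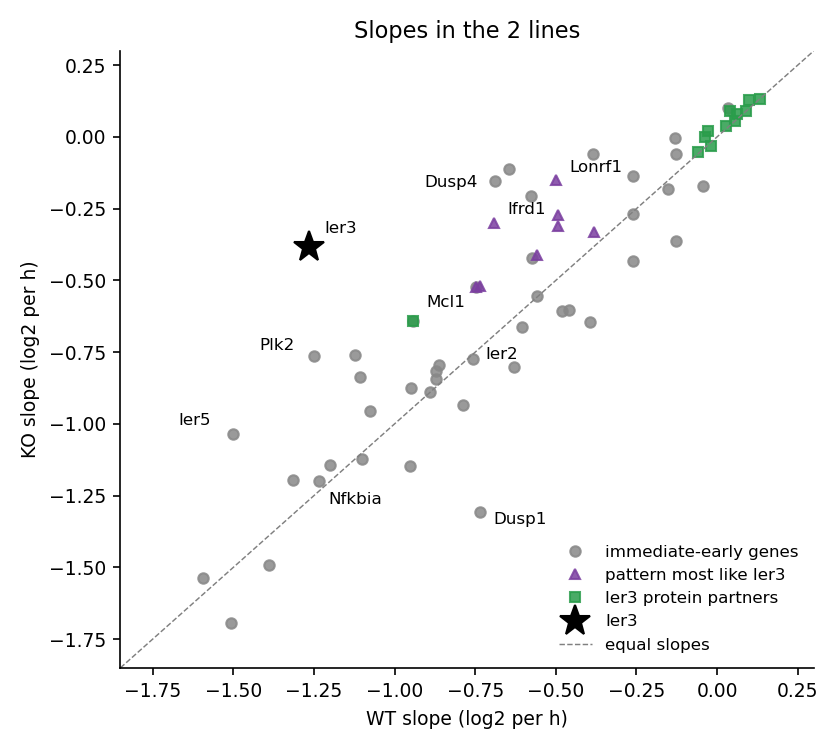
Slope in KO (y axis) against slope in WT (x axis), both in log2 per h, for Ier3 (star), the immediate-early genes (circles), the genes with the pattern most like Ier3 (triangles) and the Ier3 partners (squares), with the line of equal slopes dashed. Ier3 lies at -1.27 in WT and -0.38 in KO, while Nfkbia lies by the dashed line and the partners other than Mcl1 lie near 0.

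The genes whose signal ran most like that of Ier3 over all 48 arrays were Ifrd1, Tob1, Lonrf1, Rabgef1, Phf14, Gem, Klf4 and Zfpm2, in that order, with Pearson correlations from 0.92 to 0.89. They are the 8 highest among genes whose group means span at least 1 log2 unit, with 1 probe set per gene. The arrays share lines, times and experiments, so these values describe a likeness only. All 8 fell in both lines, and all 8 were higher in KO at 120 min by 1.34- to 2.49-fold, but likeness to Ier3 favours such genes. Of the 8, 4 were called slower, with slope differences from 0.05 to 0.39 over the 8. Choice by likeness to Ier3 bears on this count, and nothing is read from it.

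Ifrd1, an interferon-related transcriptional cofactor, had the highest correlation. Its means went from 11.47 to 10.08 in WT and from 11.52 to 10.89 in KO, a slope difference of 0.39 ± 0.08 (SE, limma adjusted p = 0.003), and the call was lost without replicate 1 (adjusted p = 0.144). Lonrf1, a RING finger gene, went from 10.09 to 9.08 in WT and from 10.15 to 9.85 in KO (slope difference 0.35 ± 0.05, adjusted p = 4.67e-06). For these 2 genes, as for Ier3, the lines were close at 0 min (adjusted p = 0.825 and 0.641).

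Tob1, an antiproliferative protein that recruits the CCR4-NOT deadenylase, had a slope difference of 0.21 ± 0.06 (adjusted p = 0.0379). Its call was lost without replicate 1, 2, 4 or 5 (adjusted p from 0.0694 to 0.37). Rabgef1, a Rab5 exchange factor, had 0.22 ± 0.06 (adjusted p = 0.0278), with all 3 of its probe sets called, and lost its call without replicate 1, 3 or 4 (adjusted p from 0.0945 to 0.22). Ribosomal protein centring and quantile normalisation ended the calls of Tob1 (adjusted p = 0.0862 and 0.0764) and Rabgef1 (0.0866 and 0.103), and that of Tob1 also ended with no filter (0.0539). Phf14, a PHD finger gene, and Zfpm2, a GATA cofactor, were not called (adjusted p = 0.0616 and 0.0988) but passed with the replicate number as a block (adjusted p = 0.0376 and 0.0149). Klf4, a zinc finger factor, and Gem, a small GTPase, were 1.82- and 1.24-fold higher in KO already at 0 min, and their slope differences of 0.23 and 0.05 did not pass the threshold (adjusted p = 0.52 and 0.833). Probe sets of 1 gene disagreed for Klf4, whose second had -0.11, for Phf14, whose 4 ran from -0.02 to 0.18, and for Zfpm2, whose 2 had -0.04 and 0.15.

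The 8 nearest tested neighbours of Ier3 on chromosome 17, Vars2, Gtf2h4, Ddr1 and 4833427F10Rik before it and Flot1, Tubb5, Mdc1 and Ppp1r18 after it, showed no such course. None was called slower or faster (limma), where 0.724% and 0.229% of all probe sets were, so this count is no result. Their slope differences lay between -0.05 and 0.05. Their slopes lay between -0.16 and 0.04 log2 per h in both lines. In level, 2 of the 8 were higher and 1 lower in KO at 120 min (all probe sets, 18.7% and 13.4%). Flot1, which encodes a lipid raft protein, was higher by 0.18 log2 (adjusted p = 0.00154) and Gtf2h4 by 0.32 (0.0197). Ppp1r18 was lower by 0.20 (adjusted p = 0.0236). Tubb5, a beta-tubulin gene, did not differ past the threshold (adjusted p = 0.89). At 0 min 1 of the 8, Ddr1, was lower in KO, by 0.19 (adjusted p = 0.0175), and none was higher.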

How the data were processed

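The authors deposited log2 signals, 1 per probe set and array, from Affymetrix Mouse Genome arrays read with GeneChip Operating Software 1.2.0.037 per the labels. The sources used here do not state how probes were summarised, background-corrected or normalised. Base 2 is an inference from the span of the values. The deposited scaling was kept, and the number of arrays limits the precision. Values are relative to the array, and whether transcription stopped fully was not tested.

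Of 45101 probe sets, 64 controls were left out and 27500 with a value above the array median in at least 4 arrays were tested: 23140 with 1 symbol, 681 with several and 3679 with none. Symbols came from the platform annotation. Slopes (log2 per h) and group means were fitted over all 48 arrays with limma 3.58.1 (trend, robust; R 4.3.3), tables were handled with the package data.table, and the fit was checked on simulated data. Separate cultures were taken on 5 days from what appears to be 1 line per genotype, so p-values do not measure the spread between lines of 1 genotype. They rest on the spread of the arrays about the fit, which had no term for the experiment. For slopes this spread also holds any departure of the course from a straight line.

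Named genes were Ier3 and Zfp36; the 8 genes most correlated with Ier3; up to 4 called genes with the largest absolute slope difference from each of 5 lists; Ier2, Ier5 and Mcl1; and 4 tested neighbours per side. Ier3 and all lists were chosen with earlier results of these data known.

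The series text says both lines were treated side by side in each experiment, which pairs equal replicate numbers. Deviations from group means correlated by more than 0.1 in 16 of 23 pairs (median 0.17, range -0.25 to 0.60). Alternatives were the replicate block, background subtraction (5th percentile, floor of 32), centring on 107 ribosomal protein genes, quantile normalisation, no filter, no trend, single replicates left out, experiments 1 to 3 or 4 and 5, 30 to 120 min, and other measures of likeness.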

Additional observations from a re-analysis of the deposited data

Results flagged for a closer look

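Of 23 groups checked for a sample standing apart, 1 had one, which is about what chance gives at 1 in 20: the KO slope of Ier3 in replicate 4, at -0.33 log2 per h, was the flattest of the 5 experiments, and this experiment lacks the 60 min array. The other 4 KO slopes lay between -0.42 and -0.39.

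The slope differed between the lines past the threshold (limma, Benjamini-Hochberg adjusted) for 17 named genes other than Ier3, in log2 per h, KO minus WT. Among immediate-early genes the differences were 0.53 for Arc, 0.53 for Dusp4, 0.49 for Plk2, 0.33 for Plk3, 0.30 for Mcl1 and 0.27 for Phlda1, and -0.57 for Dusp1, -0.25 for Klf2 and -0.13 for Rgs2. Among other reported TTP targets they were 0.52 for Mllt11 and 0.27 for Cxcl1. Among genes that fell like Ier3 in WT they were 0.32 for Arid5b and 0.30 for Cited2. Among the genes most correlated with Ier3 they were 0.39 for Ifrd1, 0.35 for Lonrf1, 0.22 for Rabgef1 and 0.21 for Tob1.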

How the results depend on the processing

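The Ier3 slope difference stayed above 0 in each alternative run, between 0.76 (30 to 120 min) and 1.07 (background subtraction, with a WT slope of -1.48 and a KO minus WT difference at 120 min of 1.99), and between 0.84 and 0.91 with 1 replicate left out. From 30 to 120 min the KO slope was -0.42. Counts of calls moved more than the Ier3 values, and the cause was not tested. Of 199 slower and 63 faster probe sets, the replicate block gave 365 and 96, background subtraction left 24 faster, experiments 1 to 3 gave 106 slower, experiments 4 and 5 gave 118 slower, and 30 to 120 min gave 63 slower and 30 faster. With 1 replicate left out they ran from 79 (without replicate 1) to 267 slower, with 106 and 102 without replicates 2 and 4, and from 40 (without replicate 2) to 50 faster. Immediate-early genes called slower were 3 in experiments 4 and 5, 1 from 30 to 120 min, and 3 to 6 with 1 replicate left out. Those called faster were 0 after background subtraction, 1 in experiments 1 to 3, 1 from 30 to 120 min, and 0 to 2 with 1 replicate left out. Reported TTP targets called slower were 1 in experiments 4 and 5 and 1 from 30 to 120 min. The 1 called faster became 0 after background subtraction, without the filter, in experiments 1 to 3, in experiments 4 and 5, and with any replicate left out. The 1 partner called slower became 0 in experiments 1 to 3, from 30 to 120 min and without replicate 1 or 4 (0 to 1 with 1 replicate left out). Quantile normalisation gave 1 slower regulator, Tnfaip3. With the replicate block, Mafk (slower), Atf3 (faster), Pim1, Phf14 and Zfpm2 (slower) gained a call among the named lists, and it ended no call. Of the 8 genes most like Ier3, 4 were shared with a correlation over group means, 1 with the distance of group means, 3 with Spearman correlation, 4 with the replicate block, and 4 to 7 with 1 replicate left out, a check added after the data were seen, as were all checks of the nearest WT falls. Values near 8 carry little signal, so falls that end there are compressed. Without detection calls no lower limit can be set.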
